A study of Mus musculus with 6 samples.

Results

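The genes described are 10 that encode nucleases and helicases acting on joint molecules, the branched DNA structures that link chromosomes during meiotic recombination. They were chosen by name from a list of joint molecule resolution and dissolution genes and matched to the count files through GENCODE release M21, which gave 10 of the 51826 gene identifiers in each file. They are Mus81, Eme1, Slx4, Gen1 and Exo1 on the nuclease side, Blm, Rmi1 and Top3a of the dissolution complex, and the helicase genes Fancm and Helq. RNA of whole testes from 8-week-old C57BL/6J mice was sequenced in 2 groups, KIFC1 knockout (KO, n = 3) and wild-type (WT, n = 3). Both groups share strain, age and tissue. The labels do not say how the allele was made, whether a Cre was used or whether each sample is 1 animal, so the p-values rest on a spread between samples that could be technical. The series title links KIFC1, a kinesin that moves towards microtubule minus ends, with meiotic recombination and male fertility.

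In meiosis, programmed DNA breaks are repaired on the homologous chromosome, and the repair passes through joint molecules that must be taken apart before the chromosomes separate. Nucleases cut them, which can give crossovers, whereas the BLM helicase with the topoisomerase TOP3A and the scaffold RMI1 unlinks them without a crossover. In mouse spermatocytes most crossovers come from the MutL nuclease pathway, in which EXO1 has a part that does not need its own nuclease activity, and MUS81 with its partner EME1 makes a minority. FANCM limits crossovers in Arabidopsis, and the worm relative of HELQ helps to remove recombination intermediates.

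The libraries held 32129093 to 38169198 counts in KO and 29274603 to 38703606 in WT, and the targeted gene followed the labels. Kifc1 stood at 0.326, 0.737 and 0.282 counts per 1000000 counts (CPM, scaled by TMM) in KO samples 1, 2 and 3, against 15.5, 16.1 and 14.7 CPM in WT samples 1, 2 and 3. The log2 difference of Kifc1 was -5.09 (SE 0.35, adjusted p = 0.00378 by edgeR), where log2 fold changes here and below are KO over WT, so that negative values are lower in KO. Its paralog Kifc5b, which can share reads with it, had a log2 fold change of -0.93 (SE 0.28, adjusted p = 0.0744 by edgeR). Testis germ cell and somatic markers were present, as 0 of 55 were at 0 in every library. Libraries differed in base composition along with the groups: the Spearman rho between a gene's GC content and its deviation from the mean of all libraries was -0.281, -0.677 and -0.128 in KO samples 1, 2 and 3 and 0.269, 0.533 and 0.526 in WT samples 1, 2 and 3. Mitochondrial genes took 1.54% to 5.74% of counts in KO and 0.661% to 0.935% in WT. Bulk values cannot tell fewer cells of a type from less RNA per cell.

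All 10 genes were tested, each with at least 130 counts in every library. Of the 10, 1 rose, Blm, and 1 fell, Mus81 (edgeR quasi-likelihood test, Benjamini-Hochberg adjusted p under 0.05 over 21518 genes), against 3.11% of all tested genes that rose and 5.12% that fell (8.23% in all). DESeq2 called the same members and 15.4% of all tested genes. At an edgeR unadjusted p under 0.05, 2 members were higher and 2 lower, against 12.1% and 15.0% of all tested genes. In CPM, KO and WT did not overlap for 6 members, with KO above WT for Blm, Rmi1 and Gen1 and KO below WT for Mus81, Eme1 and Top3a. Among all tested genes 32.7% had groups that did not overlap, 14.6% with KO higher and 18.1% with KO lower. The median log2 fold change of the members was 0.16, against -0.01 over all tested genes.

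**Figure D1:**
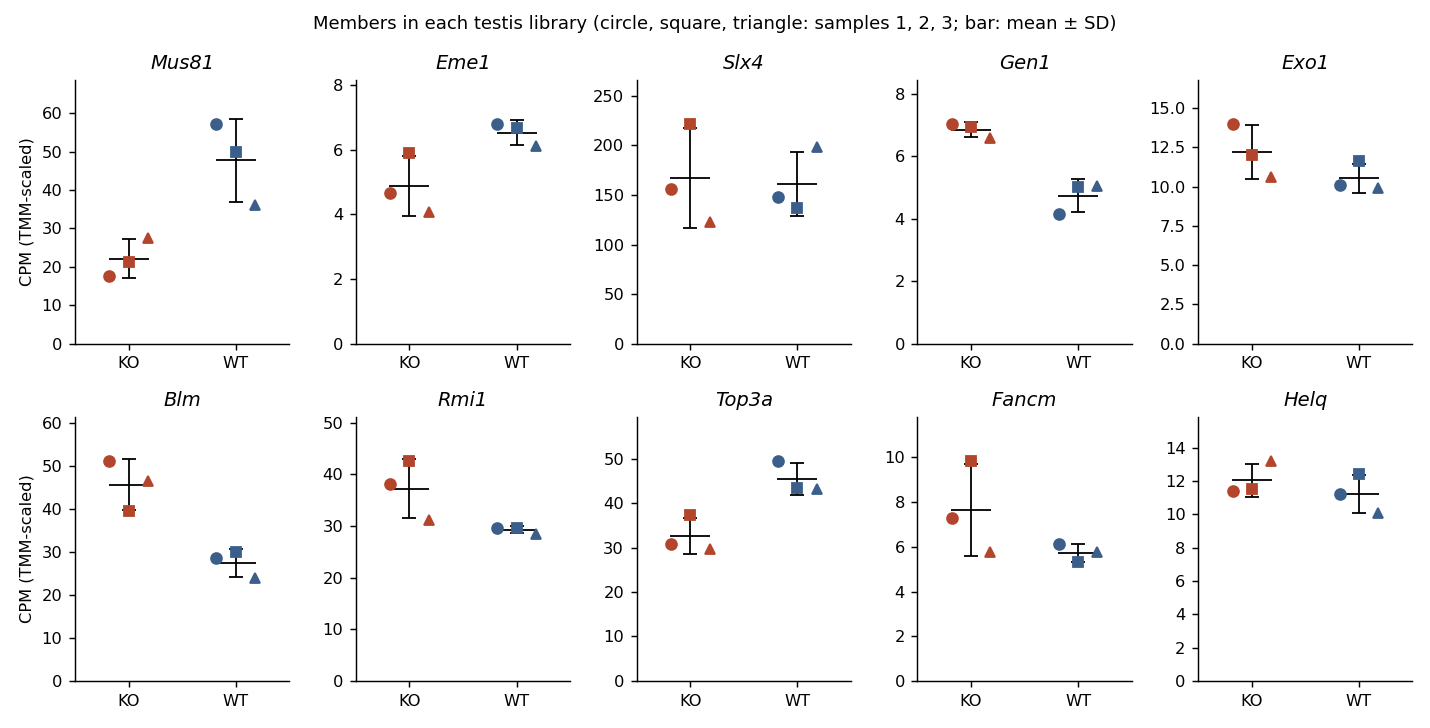
TMM-scaled CPM (vertical axis, from 0) of each member in the KO and WT testis libraries, with circles, squares and triangles for samples 1, 2 and 3 and bars for the mean ± SD (n = 3). Mus81 lies between 17.7 and 27.6 CPM in KO and between 36.0 and 57.3 CPM in WT, and Blm between 39.5 and 51.2 CPM in KO and between 23.9 and 30.1 CPM in WT.

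The members differ widely in base composition, and the coding sequences of 4 are shown because the order of the fold changes followed it. Each line is 90 coding bases from 1 exon whose GC content is nearest to that of the gene's merged exons, read from GENCODE M21 transcripts (GRCm38), with G and C in capitals. Mus81 (chr19:5486498-5486587, minus strand) and Eme1 (chr11:94650814-94650903, minus strand) have the most GC, Blm (chr7:80514598-80514687, minus strand) and Gen1 (chr12:11262474-11262563, minus strand) the least.
Mus81: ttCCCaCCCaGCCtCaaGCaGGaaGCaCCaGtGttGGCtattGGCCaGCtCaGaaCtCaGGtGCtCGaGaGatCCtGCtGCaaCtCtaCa
Eme1: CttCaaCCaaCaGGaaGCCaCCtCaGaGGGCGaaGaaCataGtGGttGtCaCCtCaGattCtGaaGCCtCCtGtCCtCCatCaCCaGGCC
Blm: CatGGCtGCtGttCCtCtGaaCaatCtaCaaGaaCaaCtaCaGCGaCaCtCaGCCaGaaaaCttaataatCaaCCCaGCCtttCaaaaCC
Gen1: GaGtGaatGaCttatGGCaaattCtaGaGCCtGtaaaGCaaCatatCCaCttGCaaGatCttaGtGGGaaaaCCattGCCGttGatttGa
Merged exons held 55.3% GC in Mus81, 54.2% in Eme1, 53.0% in Slx4, 52.5% in Top3a, 48.1% in Helq, 46.7% in Exo1, 44.6% in Rmi1, 43.9% in Fancm, 43.7% in Blm and 39.7% in Gen1. G or C was the last base of 66.1% of codons in Mus81, 59.5% in Eme1, 58.3% in Top3a, 55.5% in Slx4 and 55.4% in Helq. The share was 53.8% in Exo1, 44.3% in Fancm, 42.7% in Blm, 38.1% in Gen1 and 32.6% in Rmi1.

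Mus81, the catalytic subunit of the MUS81-EME1 structure-specific nuclease, fell. Mus81 (ENSMUSG00000024906, chromosome 19, 5482345 to 5488402, minus strand, mm10, protein-coding) had 17.7, 21.2 and 27.6 CPM in KO samples 1, 2 and 3, against 57.3, 50.0 and 36.0 CPM in WT samples 1, 2 and 3. All KO samples lay below all WT samples, and the nearest pair was KO sample 3 and WT sample 3. The means were 22.2 ± 5.01 CPM in KO and 47.8 ± 10.8 CPM in WT (SD, n = 3 each), a log2 fold change of -1.11 (SE 0.23, adjusted p = 0.0272 by edgeR), or 46.4% of the WT level. Once the trend of every library with GC content and with exon length was taken out, Mus81 was at -0.79 (SE 0.23, edgeR adjusted p = 0.103, unadjusted p = 0.00712). The GC trends differed along with the groups, so here and below that fit also takes out any KO to WT difference that follows GC content. Library composition and genotype cannot be told apart in these samples. The call was also lost without KO sample 1, KO sample 3, WT sample 1 or WT sample 2, at edgeR adjusted p values of 0.118, 0.0510, 0.0936 and 0.107, while the log2 fold change stayed between -1.28 and -0.93 with any sample left out.

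Some reads at Mus81 could belong to a neighbour, since the strand setting of the counting is not given. Its exons share 173 of 3567 bases with Efemp2, an extracellular matrix gene on the opposite strand. Efemp2 held 134 to 188 counts in KO and 89 to 279 in WT, while Mus81 held 652, 749 and 882 counts in KO samples 1, 2 and 3 and 1952, 1964 and 1095 in WT samples 1, 2 and 3. How reads in the shared bases were counted is not stated.

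Eme1, which encodes the non-catalytic partner that MUS81 needs for activity, did not pass the test. Eme1 (ENSMUSG00000039055, chromosome 11, 94644996 to 94653964, minus strand) had 4.67, 5.90 and 4.07 CPM in KO samples 1, 2 and 3, against 6.81, 6.69 and 6.11 CPM in WT samples 1, 2 and 3. The groups did not overlap, with KO sample 2 close to WT sample 3. The log2 fold change was -0.42 (SE 0.22, edgeR adjusted p = 0.252), and -0.12 (SE 0.23, edgeR adjusted p = 0.797) with the trends removed. Eme1 is the least certain of the 10 by position: 296 of its 2762 exon bases, or 10.7%, lie in exons of Lrrc59 and Mrpl27 on the opposite strand. Lrrc59 held 5924 to 6024 counts in KO and 6169 to 8932 in WT, against 130 to 208 and 186 to 263 counts for Eme1, and the part of these neighbours in the Eme1 values was not tested.

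Slx4, the scaffold that binds the structure-specific nucleases including MUS81-EME1, was the highest member and showed no difference beyond its spread. Slx4 (ENSMUSG00000039738, chromosome 16, 3979105 to 4003770, minus strand) had 156, 222 and 123 CPM in KO samples 1, 2 and 3, against 148, 137 and 198 CPM in WT samples 1, 2 and 3. The groups overlapped throughout, and the highest and lowest values were both in KO. Its log2 fold change was 0.05 (SE 0.23, edgeR adjusted p = 0.908), and it was -0.21 without KO sample 2 and -0.05 without WT sample 2.

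Gen1, a Holliday junction resolvase that acts apart from SLX4, lay higher in every KO sample but did not pass. Gen1 (ENSMUSG00000051235, chromosome 12, 11238920 to 11265801, minus strand) had 7.04, 6.95 and 6.57 CPM in KO samples 1, 2 and 3, against 4.14, 5.01 and 5.06 CPM in WT samples 1, 2 and 3. The KO samples lay close together and above the WT samples. The log2 fold change was 0.53 (SE 0.20), at an adjusted p of 0.128 by edgeR and 0.0663 by DESeq2. With the trends removed it was 0.12 (SE 0.18, edgeR adjusted p = 0.738), the largest shift of any member between these fits.

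Exo1, the exonuclease that also serves the MutL crossover pathway, had overlapping groups. Exo1 (ENSMUSG00000039748, chromosome 1, 175880581 to 175913489, plus strand) had 14.0, 12.0 and 10.6 CPM in KO samples 1, 2 and 3, against 10.1, 11.6 and 9.92 CPM in WT samples 1, 2 and 3. Its log2 fold change was 0.21 (SE 0.19, edgeR adjusted p = 0.497), and 0.04 (SE 0.17) with the trends removed.

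Blm, the RecQ helicase of the dissolution complex, rose. Blm (ENSMUSG00000030528, chromosome 7, 80454733 to 80535119, minus strand) had 51.2, 39.5 and 46.5 CPM in KO samples 1, 2 and 3, against 28.6, 30.1 and 23.9 CPM in WT samples 1, 2 and 3. Every KO sample lay above every WT sample. The means were 45.8 ± 5.91 CPM in KO and 27.5 ± 3.22 CPM in WT (SD, n = 3 each), a log2 fold change of 0.73 (SE 0.17, adjusted p = 0.0353 by edgeR), or 1.66-fold. With the trends removed it was 0.47 (SE 0.17, edgeR adjusted p = 0.159, unadjusted p = 0.0218). The call was lost without any sample other than KO sample 2, at edgeR adjusted p values of 0.151 and 0.0828 without KO samples 1 and 3 and of 0.0866, 0.119 and 0.104 without WT samples 1, 2 and 3, and with no expression filter (0.0568), and the log2 fold change stayed between 0.64 and 0.83 with any sample left out.

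The other subunits of the dissolution complex did not pass the test. Rmi1 (ENSMUSG00000035367, chromosome 13, 58402248 to 58411148, plus strand), the OB-fold scaffold, had 38.1, 42.6 and 31.1 CPM in KO samples 1, 2 and 3, against 29.7, 29.7 and 28.5 CPM in WT samples 1, 2 and 3. KO lay above WT in every sample, but by little in KO sample 3, and the log2 fold change was 0.35 (SE 0.16, edgeR adjusted p = 0.212). Of its 6568 exon bases, 330 lie in exons of Hnrnpk on the opposite strand, which held 6896 to 7873 counts in KO and 5910 to 8074 in WT, so its level is uncertain.

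Top3a, the topoisomerase that passes strands during dissolution, lay lower in KO. Top3a (ENSMUSG00000002814, chromosome 11, 60740058 to 60777365, minus strand) had 30.8, 37.3 and 29.8 CPM in KO samples 1, 2 and 3, against 49.5, 43.5 and 43.3 CPM in WT samples 1, 2 and 3. The groups did not overlap, and the means were 32.6 ± 4.11 CPM in KO and 45.5 ± 3.53 CPM in WT (SD, n = 3 each). Its log2 fold change, -0.48 (SE 0.16, edgeR adjusted p = 0.0930), did not pass. The only alternative in which Top3a passed was without KO sample 2, at -0.59 (edgeR adjusted p = 0.0362). In that setting calls over all genes also went from 669 higher and 1101 lower to 1457 and 1692. With any other sample left out its edgeR adjusted p was 0.154 to 0.279. Top3a was at -0.26 (SE 0.17) and Rmi1 at 0.16 (SE 0.15) with the trends removed.

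Fancm and Helq, both DNA helicase genes, had overlapping groups. Fancm (ENSMUSG00000055884, chromosome 12, 65075603 to 65132058, plus strand), the translocase that anchors the Fanconi anaemia core complex, had 7.31, 9.84 and 5.79 CPM in KO samples 1, 2 and 3, against 6.11, 5.32 and 5.78 CPM in WT samples 1, 2 and 3. KO sample 2 stood well above the others, and the log2 fold change was 0.42 (SE 0.24, edgeR adjusted p = 0.300), or 0.13 (SE 0.23) with the trends removed. Its exons share 738 of 10440 bases with 2 opposite-strand genes, Gm47870 and Gm47869, which held at most 11 counts in any library. Helq (ENSMUSG00000035266, chromosome 5, 100762145 to 100798598, minus strand) had 11.4, 11.5 and 13.2 CPM in KO samples 1, 2 and 3, against 11.2, 12.4 and 10.1 CPM in WT samples 1, 2 and 3. Its log2 fold change was 0.10 (SE 0.18, edgeR adjusted p = 0.764) and 0.07 (SE 0.17) with the trends removed.

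**Figure D2:**
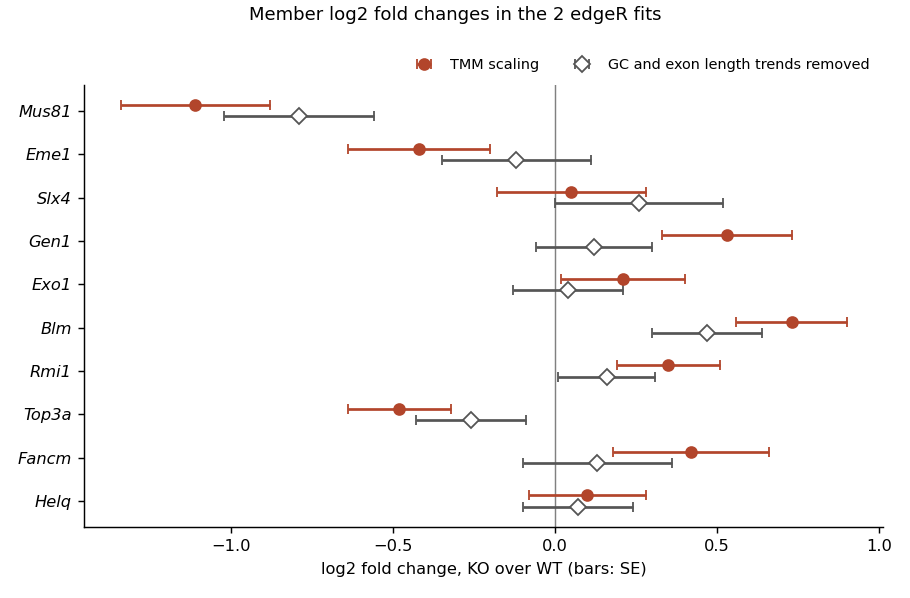
Log2 fold change, KO over WT (horizontal axis), of each member with its SE in the edgeR fit with TMM scaling (filled circles) and in the fit with GC and exon length trends taken out (open diamonds). Mus81 is at -1.11 and -0.79 and Blm at 0.73 and 0.47, and every other member lies between -0.26 and 0.26 once the trends are removed.

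The order of the members' log2 fold changes followed their GC content. Across the 10 members, which share the same 6 libraries, the Spearman rho between log2 fold change and exon GC content was -0.952, and it was -0.525 across 12751 genes with a mean log2 CPM above 2. With the GC and exon length trends removed it was -0.612 across the members. Over all tested genes the median log2 fold change was 0.47 at up to 40% GC, 0.26 from 40% to 45%, 0.05 from 45% to 50%, -0.19 from 50% to 55% and -0.39 from 55% to 60%. Measured from the median of its GC range, Mus81 lay at -0.72 and Blm at 0.48, the widest gaps of the 10, and Gen1 at 0.07. In the fit with the GC and length trends removed, 0 of 10 members and 18 of 21518 genes (0.0837%) passed edgeR's adjusted threshold. At an edgeR unadjusted p under 0.05 there were 2 members, Blm and Mus81, against 22.3% of all tested genes.

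**Figure D3:**
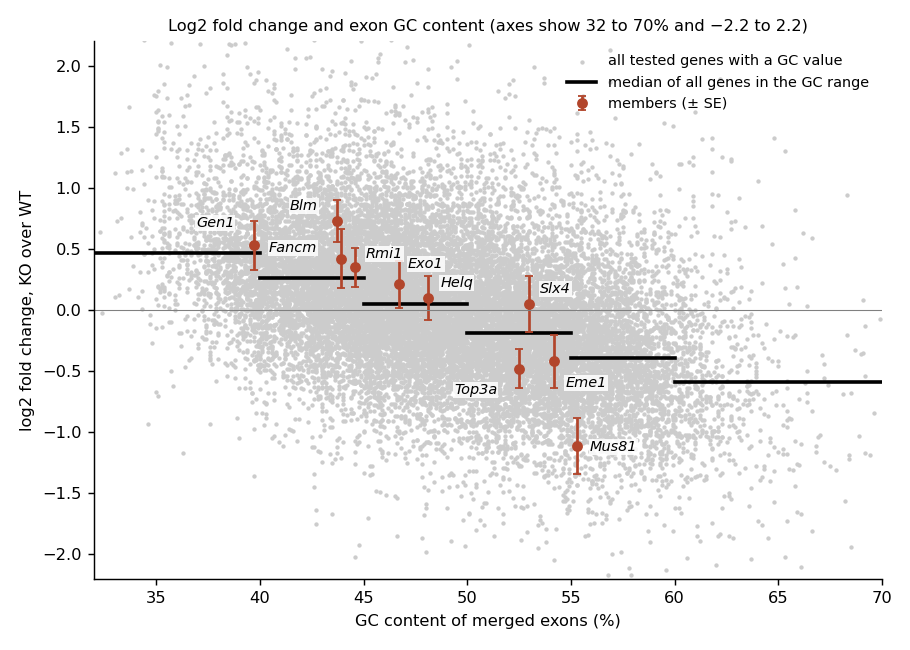
Log2 fold change, KO over WT (vertical axis), against the GC content of merged exons in percent (horizontal axis), for all tested genes (grey), the members with their SE (red) and the median of all genes in 6 GC ranges (black lines). The medians run from 0.47 at up to 40% GC to -0.59 above 60%, and Mus81 and Blm lie -0.72 and 0.48 from the median of their own range, the widest gaps of the 10.

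Levels between genes were compared per length, as CPM per kilobase of merged exon, a measure that takes every annotated exon as transcribed. In KO the order by mean was Slx4 (21.8), Top3a (7.10), Mus81 (6.22), Rmi1 (5.67), Blm (5.21), Helq (2.37), Eme1 (1.77), Exo1 (1.45), Gen1 (0.882) and Fancm (0.732). There Top3a, Mus81, Rmi1 and Blm each overlapped the next in their 3 samples, as did Eme1 with Exo1 and Gen1 with Fancm. In WT the order was Slx4 (21.0), Mus81 (13.4), Top3a (9.88), Rmi1 (4.46), Blm (3.14), Eme1 (2.37), Helq (2.22), Exo1 (1.25), Gen1 (0.610) and Fancm (0.549), with overlap between Mus81 and Top3a, between Eme1 and Helq and between Gen1 and Fancm. In WT the lowest samples of Mus81 and Top3a lay above the highest of Rmi1 and Blm. In KO Mus81 overlapped both, and Top3a lay above Blm and overlapped Rmi1 by a narrow margin (6.47 in the lowest Top3a sample and 6.48 in the highest Rmi1 sample).

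**Figure D4:**
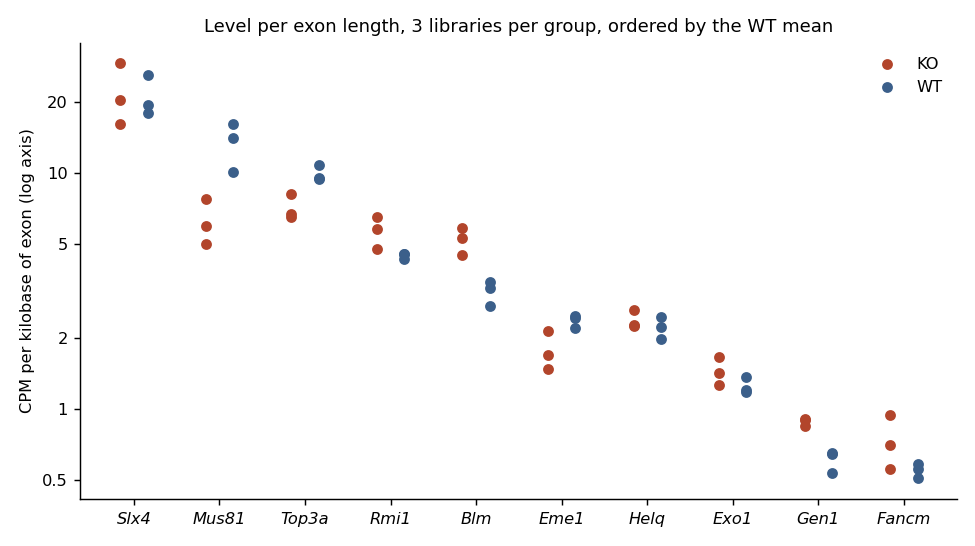
CPM per kilobase of merged exon on a log axis for each member, with 1 point per library and KO left of WT, ordered by the WT mean. Slx4 lies above every other member in both groups, and Gen1 and Fancm lie below 1.

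Ratios within a library, which do not depend on its scaling, were taken for 9 pairs of members that act together or in competing ways, and KO and WT did not overlap in 4 of them. The ratio of Blm to Mus81 per kilobase was 1.18, 0.756 and 0.685 in KO samples 1, 2 and 3, against 0.203, 0.245 and 0.270 in WT samples 1, 2 and 3, and the ratio of Blm to Top3a was 0.871, 0.554 and 0.819 in KO, against 0.302, 0.362 and 0.289 in WT. The groups did not overlap in either ratio, nor in that of Top3a to Rmi1, which was 1.15, 1.25 and 1.37 in KO, against 2.39, 2.09 and 2.17 in WT, nor in that of Mus81 to Gen1, at 5.48, 6.65 and 9.14 in KO, against 30.1, 21.7 and 15.5 in WT. The other 5 pairs overlapped. Mus81 to Eme1 was at 2.94, 2.79 and 5.25 in KO, against 6.51, 5.78 and 4.56 in WT, and Blm to Rmi1, of the same complex, at 1.01, 0.694 and 1.12 in KO, against 0.721, 0.758 and 0.629 in WT. Mus81 to Slx4 ranged from 0.205 to 0.483 in KO and from 0.390 to 0.833 in WT, Fancm to Helq from 0.212 to 0.415 in KO and from 0.208 to 0.279 in WT, and Exo1 to Gen1 from 1.48 to 1.84 in KO and from 1.81 to 2.24 in WT. These ratios restate the values above and carry no test. Each of the 4 pairs without overlap sets a member with all KO samples above WT against one with all KO samples below. Their ratios could therefore not overlap. These 4 pairs also set a gene over 50% GC against one under 45%, which none of the 5 with overlap does. The share of other gene pairs without overlap was not determined, and the cause of the separation was not tested.

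**Figure D5:**
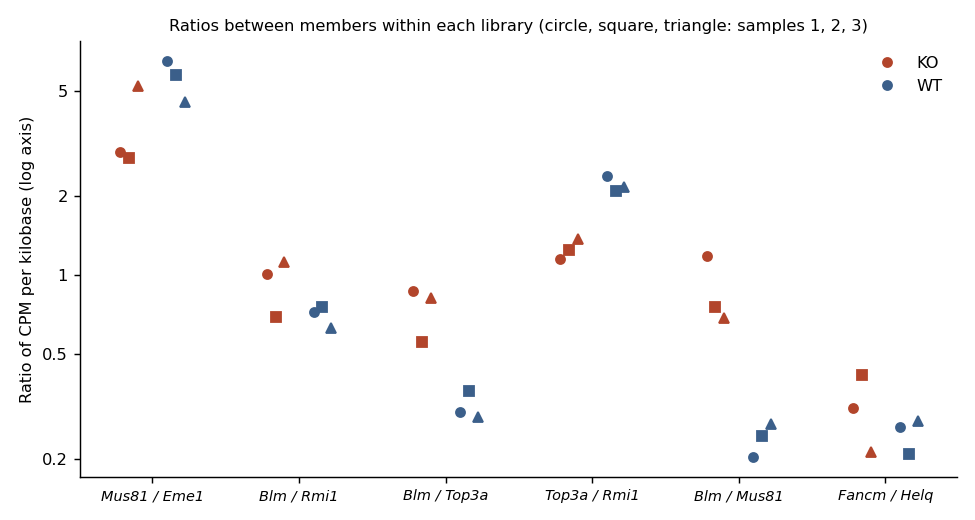
Ratio of CPM per kilobase between pairs of members within each library on a log axis, with KO left of WT and circles, squares and triangles for samples 1, 2 and 3. Blm to Mus81 lies between 0.685 and 1.18 in KO and between 0.203 and 0.270 in WT.

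The promoters of Mus81 and Blm are shown because these were the members that passed the test, in opposite directions. Each is 250 bases before to 50 after the annotated start in RefSeq on GRCm38.p6, at chr19:5488330-5488629 for Mus81 and chr7:80534949-80535248 for Blm, both on the minus strand, with GC boxes (GGGCGG) and CCAAT boxes (CCAAT) on either strand in capitals.
Mus81: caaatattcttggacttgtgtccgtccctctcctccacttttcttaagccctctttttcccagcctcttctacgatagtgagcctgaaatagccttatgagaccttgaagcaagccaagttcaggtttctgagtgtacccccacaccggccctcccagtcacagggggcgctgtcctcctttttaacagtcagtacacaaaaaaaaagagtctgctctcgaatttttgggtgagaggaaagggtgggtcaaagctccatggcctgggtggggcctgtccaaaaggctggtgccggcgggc
Blm: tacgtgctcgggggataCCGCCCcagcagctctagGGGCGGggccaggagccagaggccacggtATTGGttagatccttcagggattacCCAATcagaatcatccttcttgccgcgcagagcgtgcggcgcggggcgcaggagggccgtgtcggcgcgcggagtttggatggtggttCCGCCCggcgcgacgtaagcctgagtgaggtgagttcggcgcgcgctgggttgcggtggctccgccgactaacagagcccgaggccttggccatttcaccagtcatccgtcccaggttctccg
The Blm window held 3 GC boxes, 2 CCAAT boxes and 32 CpG dinucleotides at 66% GC, and the Mus81 window 0, 0 and 7 at 52.3% GC. Among 32841 windows of this length, 35.7% held a GC box and 37.4% a CCAAT box, and the median GC content was 52.7%. No such background was taken for CpG dinucleotides. Both windows held 1 MYB core (AACNG, either strand), where 80.3% of all windows held at least 1, and no match of these motifs overlapped a match of another. The table matched 8 of the 10 members, without Exo1 and Top3a. Of the other matched members, none of which passed, Gen1 and Fancm held 2 GC boxes each, Rmi1 and Helq 1, and Eme1 and Slx4 0. Gen1, Fancm, Rmi1, Helq, Eme1 and Slx4 held 32, 26, 45, 25, 21 and 4 CpG dinucleotides. The Slx4 window (chr16:4001629-4001928) lies inside the gene as GENCODE gives it, 3979105 to 4003770 on the minus strand. It therefore need not be the main promoter of Slx4. Rmi1 had 2 windows, of which the first was used. A link between promoter sequence and the changes was not tested.

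Partner genes of the same steps were read from 5 lists, in which 0 of 64 tested genes rose and 5 fell by edgeR, where 3.11% and 5.12% of all tested genes did, with a median log2 fold change of -0.13. DESeq2 called 4 of the 64 higher and 10 lower, against 7.17% and 8.19% of all tested genes. By edgeR the 5 came to 0 without KO sample 1, WT sample 1 or WT sample 2, to 1 without KO sample 3 or WT sample 3, and to 6, with 1 gene higher, without KO sample 2.

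Of 11 related nuclease genes, 0 rose and 2 fell by edgeR, with 3 higher and 2 lower both at an unadjusted p under 0.05 and by DESeq2. The 2 that fell were Eme2, the alternative partner of MUS81, at 11.3 ± 0.569 CPM in KO and 20.0 ± 1.74 CPM in WT (log2 fold change -0.82, SE 0.16, edgeR adjusted p = 0.0246), and Ercc1, the partner of the XPF nuclease, at 18.9 ± 1.58 CPM in KO and 29.7 ± 2.92 CPM in WT (-0.65, SE 0.16, edgeR adjusted p = 0.0423). Eme2 is uncertain, since exons of Spsb3 and Mapk8ip3 share 1694 and 1557 of its 6000 exon bases, and Ercc1 shares 106 of 3111 with Cd3eap. Both have GC contents like that of Mus81, at 55.1% and 55.6%. Eme2 was at -0.53 and Ercc1 at -0.32 with the trends removed. The 3 higher by DESeq2, named after their values were seen, were Rbbp8 (DESeq2 adjusted p = 0.00890), Rad50 (DESeq2 adjusted p = 0.0110) and Nbn (DESeq2 adjusted p = 0.0330), which act in the resection of break ends. By edgeR their log2 fold changes were 0.56, 0.71 and 0.55 (adjusted p = 0.0534, 0.0607 and 0.0843), and 0.08, 0.57 and 0.42 with the trends removed.

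Of 15 genes of the Fanconi anaemia core and its anchor, the complex that FANCM tethers to DNA, 14 were tested, 0 rose and 2 fell, with 0 higher and 3 lower by DESeq2 and a median of -0.39. Faap100, a core subunit that works with FANCB and FANCL, fell to 44.5 ± 2.68 CPM in KO, against 86.8 ± 2.74 CPM in WT (log2 fold change -0.96, SE 0.13, edgeR adjusted p = 0.0161). Fancg, another core subunit, fell to 34.5 ± 2.02 CPM in KO, against 54.7 ± 1.41 CPM in WT (-0.67, SE 0.14, edgeR adjusted p = 0.0270). The median of this list was -0.25 with the trends removed, when Faap100 was at -0.50 and Fancg at -0.48.

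None of the 11 dissolution and helicase partners passed edgeR's adjusted threshold, where 0 were higher and 2 lower at an unadjusted p under 0.05, and DESeq2 called 0 higher and 2 lower. Those with the smallest p were the helicase genes Rtel1, at 32.2 ± 2.11 CPM in KO and 45.6 ± 0.603 CPM in WT (log2 fold change -0.50, SE 0.14, edgeR adjusted p = 0.0598), and Recql5, at 24.3 ± 5.74 CPM in KO and 38.5 ± 5.68 CPM in WT (-0.66, SE 0.21, edgeR adjusted p = 0.0846). With the trends removed Rtel1 was at -0.38 and Recql5 at -0.47. Rmi2, the other RMI subunit, was at 2.19 ± 0.485 CPM in KO and 2.64 ± 0.762 CPM in WT. None of the 14 class I crossover genes passed edgeR either, with 2 higher and 4 lower at an unadjusted p under 0.05 and 1 higher and 1 lower by DESeq2. Mlh3, the nuclease subunit of that pathway, was at 13.5 ± 0.155 CPM in KO and 25.2 ± 7.76 CPM in WT (-0.90, SE 0.24, edgeR adjusted p = 0.0545), and Hfm1, a helicase gene, at 51.8 ± 6.47 CPM in KO and 36.3 ± 1.17 CPM in WT (0.51, SE 0.15, edgeR adjusted p = 0.0694). With the trends removed Mlh3 was at -1.11 (edgeR adjusted p = 0.0734) and Hfm1, at 38.8% GC, at 0.06 (edgeR adjusted p = 0.820).

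Of 14 strand exchange genes, 0 rose and 1 fell, with 0 higher and 2 lower by DESeq2. This was Zswim7, which encodes the partner of SWSAP1 in a complex that assists the recombinases, at 18.4 ± 4.24 CPM in KO and 34.9 ± 5.71 CPM in WT (log2 fold change -0.92, SE 0.21, edgeR adjusted p = 0.0344). Rad54l, a DNA motor of strand exchange, was at 10.9 ± 0.530 CPM in KO and 16.9 ± 1.95 CPM in WT (-0.63, SE 0.17, edgeR adjusted p = 0.0562), and its exons overlap those of Lrrc41 over 1184 of 7706 bases. With the trends removed Zswim7 was at -0.63 and Rad54l at -0.78. Across the 5 lists, 0 genes passed with the trends removed, where 2 of the 64 were higher and 16 lower at an edgeR unadjusted p under 0.05, against 11.4% and 10.9% of all tested genes.

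Of 55 cell type markers 1 rose and 3 fell, where 3.11% and 5.12% of all tested genes did. With the trends removed 0 markers passed edgeR. At an edgeR unadjusted p under 0.05 in that fit, 13 were higher and 2 lower, against 11.4% and 10.9% of all tested genes. Markers of early meiotic prophase summed to 345 to 433 CPM in KO and 217 to 244 CPM in WT. The largest part of that sum was Smc1b, at 235 to 277 CPM in KO and 109 to 132 CPM in WT, the 1 of 5 that rose (log2 fold change 1.05, edgeR adjusted p = 0.0161), and Dmc1 was at -0.29 (edgeR adjusted p = 0.535). The median log2 fold change of these 5 was 0.44, and -0.04 with the trends removed. Elongating spermatid markers summed to 10518 to 11869 CPM in KO and 15539 to 17443 CPM in WT, with 2 of 5, Prm1 (-0.66, edgeR adjusted p = 0.0450) and Tnp2 (-0.63, edgeR adjusted p = 0.0451), that fell, and their median was -0.63, or -0.31 with the trends removed. The third marker that fell was Alas2 of the blood list (-0.96, edgeR adjusted p = 0.0194). Pachytene markers summed to 3559 to 6159 CPM in KO and 5025 to 5541 CPM in WT, and 0 of 5 passed edgeR, with 0 at an unadjusted p under 0.05 and 0 by DESeq2. In the other lists the median log2 fold change with the trends removed was 0.42 for spermatogonia, 0.12 for pachytene spermatocytes and 0.30 for round spermatids. It was 0.55 for Sertoli cells, 0.25 for Leydig cells and 0.23 for peritubular myoid cells. For macrophages, endothelial cells and blood it was 0.31, 0.39 and -0.27. The part of cell type shares in the member values was not tested.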

How the data were processed

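RNA from whole testes was sequenced in 3 KO and 3 WT samples of mice aged 8 weeks. Trimmomatic, HISAT2, HTSeq and the build mm10 are named in the submitters' processing notes; their versions, the annotation release, the strand setting and the handling of multi-mapping reads are not given in the sources used. The deposited files hold raw counts per Ensembl gene, which the authors had not normalized. GENCODE M21 (GRCm38, the assembly mm10 names) gave symbols to 51633 of 51826 identifiers, and its transcripts gave GC content over merged exons.

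The test was edgeR 4.0.16 (R 4.3.3), quasi-likelihood, with TMM scaling and filterByExpr, fitted to all 6 samples without covariates. SE came from the log2 fold change divided by the root of its F value. Trends were removed with offsets from splines of 5 degrees of freedom per term, fitted on 12751 genes. Alternatives were other scalings and filters, DESeq2 1.42.0, a replicate block, GC offsets with and without exon length, no mitochondrial genes, and each sample left out. The precision of a count is set by its depth: 3 counts correspond to 0.0763 to 0.0986 TMM-scaled CPM, which allows for counting error alone. Samples within a group differed beyond sampling noise, with a chi-square of 15.4 to 135 per degree of freedom. The highest values, 135 and 123, were those of KO sample 2 with KO samples 1 and 3. KO samples 1 and 3 gave 31.0, and pairs of WT samples gave 15.4 to 50.3.

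The members and lists, and the alternatives, were chosen with earlier results of these data known. Named genes were all members, Kifc1, neighbours that share exons, the 2 genes of each partner list with the smallest p, and cell type markers. Rmi2, Rbbp8, Rad50 and Nbn were added after their values were seen.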

Additional observations from a re-analysis of the deposited data

How the results depend on the processing

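Of 192 alternative log2 fold changes (10 members, Kifc1 and Kifc5b under 16 alternatives), 169 kept their direction and side of the threshold, 18 lost the threshold, 3 gained it and 2, both of Slx4, turned (-0.21 without KO sample 2 and -0.05 without WT sample 2, in a range from -0.21 to 0.25 with any sample left out). The 18 were of Mus81 and Blm, the only members with a call to lose, which together lost it more often than they kept it. For the other members and Kifc5b, keeping the side of the threshold meant staying without a call. With TMM scaling and the filterByExpr filter, edgeR called 669 genes higher and 1101 lower in KO. This came to 370 and 640 with no filter, 1542 and 1763 with DESeq2, 2 and 6 with GC offsets, and 4 and 14 with GC and length offsets. With any sample left out it ran from 0 to 1457 higher and from 1 to 1692 lower, the most without KO sample 2. Of the members, 0 to 1 were then higher and 0 to 2 lower. With no filter 0 members were higher (2 at an edgeR unadjusted p under 0.05). With GC offsets, and with GC and length offsets, 0 were higher and 0 lower (1 and 1 at an edgeR unadjusted p under 0.05). The cause of these shifts was not tested.

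The labels do not say whether samples with the same number are paired, and the replicate block was fitted as an alternative only. Deviations of KO and WT samples with the same number correlated at -0.475, -0.119 and -0.141 for numbers 1, 2 and 3, and no KO sample correlated best with its own number. Deviations from a mean of 3 samples are not independent of each other, so these values cannot exclude a pairing. With the block 8 genes were higher and 13 lower, and 0 members were higher and 0 lower (1 and 1 at an edgeR unadjusted p under 0.05). With the block and the GC and length offsets the counts were 1 and 4 genes and 0 and 0 members (1 and 1 at an edgeR unadjusted p under 0.05). Depth limits Gen1, Eme1 and Fancm most, at 130 to 347 counts a library.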
